A study of Drosophila melanogaster with 18 samples.

Results

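A poly(A) site is the place where a nascent transcript is cut and receives its poly(A) tail, and a gene with a proximal and a distal site in its last exon makes transcripts with a short or a long 3′ UTR. The pairs described here are the genes with exactly 2 counted sites whose positions lay more than 250 and at most 600 nt apart, with the position taken as the end of the site on the plus strand and its start on the minus strand. These were 192 of 529 gene entries, against 143 entries with sites at most 250 nt apart, 170 with sites over 600 nt apart and 24 entries with 3 sites. The members carried 191 gene symbols, since lola had 2 isoform entries, lola-PAA and lola-PD.

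Counts came from 18 libraries of 3′-end sequencing of Drosophila testes, with 2 libraries in each of 9 groups. The 8 knockdown groups carried bamGal4 with an RNAi knockdown: PCF11_KD (bamGal4>PCF11-KD), PCF11_NIG_KD (bamGal4>PCF11-NIG-KD), cbc_KD (bamGal4>cbc-KD, with the stock BL 77426 named), suf_KD (bamGal4>su(f)-KD), CstF64_KD (bamGal4>CstF64-KD), CstF50_KD (bamGal4>CstF50-KD), CPSF6_KD (bamGal4>CPSF6-KD) and PABP2_KD (bamGal4>PABP2-KD). The deposited tables name PCF11_KD with VDRC and PCF11_NIG_KD with NIG, and the labels say no more of how these RNAi lines differ. The control group carried bamGal4 alone. All 9 groups therefore share the driver, each knockdown group was 1 RNAi genotype, and about 150 pairs of testes were pooled into a library, with crosses kept for 3 days at 25 °C and progeny at 29 °C. Per the series' design text the knockdown was made in spermatocytes. The libraries were made from whole testes, which also hold somatic and other germ cells, so fewer cells of a type and less RNA per cell cannot be told apart. The labels do not say that duplicates came from separate crosses, so p-values measure the spread between these libraries, which may be technical. All 8 comparisons with control used the same 2 control libraries. Sample-sheet numbers in the column names recur between control and PABP2_KD, PCF11_KD and CPSF6_KD, suf_KD and CstF50_KD, and PCF11_NIG_KD and CstF64_KD, so the libraries were not all on 1 sample sheet. The sheet of each library is not given in the sources used here, so in each such pair, as in PABP2_KD against control and suf_KD against CstF50_KD, the sheet and the group cannot be told apart, and other comparisons may also cross sheets.

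Cleavage stimulation factor, built from CstF64, CstF50 and su(f), binds the GU-rich element downstream of a site. Cleavage factor II, built from PCF11 and Clp1 (cbc in flies), acts with it at the cut and at the end of transcription. CPSF6 is part of cleavage factor I, which in mammals binds UGUA motifs upstream of sites, and PABP2 is the nuclear protein that coats new poly(A) tails. The testis is known for transcripts with short 3′ UTRs, and the choice between sites decides which regulatory elements a transcript keeps.

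The distance between the sites of a pair ran from 257 to 599 nt, with a median of 400 nt and quartiles of 334 and 474 nt. Members lay on chromosomes 3R (43), 3L (43), 2R (39), 2L (37), X (26) and 4 (4), 92 on the plus and 100 on the minus strand. The proximal site was in an annotated 3′ UTR in 185 of 192 members (96.4%). The distal site was in a 3′ UTR in 85 and past the annotated gene end in 101, by at most 50 nt in 82 of these. The distal site lay within 50 nt of an annotated transcript end in 143 members, and the proximal site in 42. In 168 members both sites lay in 1 annotated exon, allowing 50 nt past its end. Another annotated gene covered a site on the opposite strand in 48 members, and on the same strand alone in 18. For these members reads of the neighbour cannot be told apart from reads of the member. On the opposite strand this is because reads were counted without regard to strand.

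Library totals in the table ran from 342763 to 819286 counts, of which members took 41.2% to 46.4%. The 2 control libraries were among the 3 with fewest counts. CG33293 alone took 2.41% to 13.0% of the members' counts in a library and CG3982 4.43% to 10.8%. The 2 libraries of a group differed by a median of 1.76 to 4.16 percentage points in proximal share over the members in 8 groups, and by 6.34 points in PABP2_KD, where 28 members differed by 20 points or more. Of the marker genes looked up for other testis cells, zfh1, a factor of the somatic cyst lineage, was at 69.0 to 232 CPM in the 16 knockdown libraries, against 457 and 483 CPM in control (CPM, the counts of a library scaled by edgeR to a common library size). It was the 1 marker of 6 on the somatic list in the table, and CadN, eya, Fas3, tj and upd1 were not measured here. The 2 of 5 spermatogonial markers in the table summed to 1400 to 4460 CPM in knockdown libraries, against 2730 and 2900 CPM in control, and went apart: Rbp9 was lower in every knockdown, while chinmo was at 4010 and 3580 CPM in cbc_KD, against 1130 and 1440 CPM in control. The 2 of 6 spermatocyte markers summed to 1440 to 3150 CPM, against 1280 and 1460 CPM, with simj at 1430 and 1560 CPM in suf_KD and 1380 and 1350 CPM in CstF64_KD, against 480 and 600 CPM in control. The 3 of 6 spermatid markers summed to 8240 to 14400 CPM, against 9570 and 10500 CPM. Of these, r-cup had a log2 change over control of 0.97 in suf_KD and 0.96 in CstF64_KD, and m-cup one of −1.07 in PABP2_KD. The part of cell types or stages in the site usage below was not tested. None of the cleavage and polyadenylation factors listed for this report, the knocked-down ones included, was in the table, so the knockdowns could not be checked in these counts.

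The question of each comparison was how the depletion of a factor changed the choice between the 2 sites. The proximal share of a pair is the percent of its counts, over both sites, that lie on the proximal site. In the median member it was 61.4% and 62.7% in PCF11_KD, 71.5% and 72.5% in PCF11_NIG_KD, 46.1% and 49.5% in cbc_KD, and 70.8% and 73.7% in suf_KD. It was 80.6% and 79.6% in CstF64_KD, 86.2% and 86.7% in CstF50_KD, 81.1% and 84.0% in CPSF6_KD, 65.8% and 71.5% in PABP2_KD, against 81.0% and 82.4% in control. Both libraries of PCF11_KD, PCF11_NIG_KD, cbc_KD, suf_KD, CstF64_KD and PABP2_KD lay below both controls, those of CstF50_KD lay above them, and of those of CPSF6_KD 1 lay between the controls and 1 above. The median of the members' own changes of share was −7.83 points for PCF11_KD and −4.46 points for PCF11_NIG_KD. cbc_KD had −17.4 points, suf_KD −3.36, CstF64_KD 0.798, CstF50_KD 4.26, CPSF6_KD 1.59 and PABP2_KD −5.64. The value of CstF64_KD changed sign, to −0.142, without control replicate 1. Over all 525 gene entries tested the same medians were −6.24, −3.86, −16.2, −1.69, 1.07, 3.73, 2.02 and −2.62 points, in the same order of groups.

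**Figure D1:**
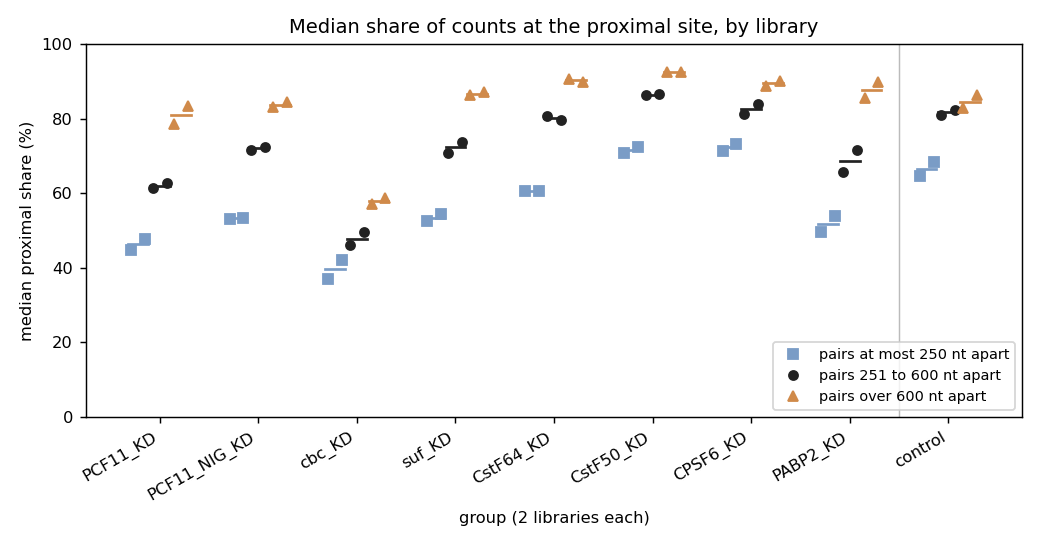
Median proximal share (percent of a pair's counts on the proximal site) in each library, for members (black circles), pairs at most 250 nt apart (blue squares) and pairs over 600 nt apart (orange triangles). Points are libraries and bars are the means of 2; for members cbc_KD is lowest, at 46.1% and 49.5%, and CstF50_KD highest, at 86.2% and 86.7%, against 81.0% and 82.4% in control.

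A pair was called toward the distal or the proximal site where its odds of proximal use differed from control at an adjusted p of 0.05 (edgeR's quasi-likelihood test, Benjamini-Hochberg over 525 entries). Of 192 members 191 had the 10 counts per library, on average, needed for the test; the exception was mei-W68, whose product makes the double-strand breaks of female meiosis, with a mean of 9.44 counts. In cbc_KD 126 of 191 members moved toward the distal site and 10 toward the proximal one, against 60.6% and 6.67% of all entries tested. In PCF11_KD 93 moved to distal and 13 to proximal (all entries 43.8% and 9.52%), and in PCF11_NIG_KD 72 and 24 (33.9% and 12.4%). In PABP2_KD 84 moved to distal and 33 to proximal (37.3% and 21.7%), and in suf_KD 55 and 14 (26.1% and 11.6%). CstF64_KD had 42 and 34 (17.7% and 21.1%) and CPSF6_KD 37 and 41 (14.7% and 24.2%). In CstF50_KD 10 moved to distal and 64 to proximal (6.86% and 33.9%). As shares of 191, the members' calls were 66.0% and 5.24% in cbc_KD, 48.7% and 6.81% in PCF11_KD, 44.0% and 17.3% in PABP2_KD, and 5.24% and 33.5% in CstF50_KD, close to those of all entries. Where sample-sheet numbers recur, the distal calls were 93 in PCF11_KD and 37 in CPSF6_KD, and 55 in suf_KD and 10 in CstF50_KD. They were 72 in PCF11_NIG_KD and 42 in CstF64_KD, and 84 in PABP2_KD, whose numbers recur with control. In these differences the sheet and the group cannot be told apart. Falls of share of 30 points or more were seen in 73 members in cbc_KD, 35 in PABP2_KD, 30 in PCF11_KD and 0 in CstF50_KD. Rises of that size were seen in 12 members in CstF50_KD and 2 in cbc_KD. Among all 525 entries tested such falls were 184, 76, 78 and 3, and such rises 45 and 9, in the same order of groups.

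Several of these counts changed when 1 library was left out or fewer groups were fitted. Leaving out a library leaves 1 in its group, so lost power cannot be told apart from dependence on that library. The proximal count of PCF11_KD was 6 without control replicate 1 and 8 without PCF11_KD replicate 2. That of PCF11_NIG_KD was 11 without control replicate 1, 15 without PCF11_NIG_KD replicate 1 and 11 without replicate 2. That of CstF64_KD was 13 without control replicate 1 and 16 without CstF64_KD replicate 1. Without control replicate 1 the proximal counts were 36 in CstF50_KD and 23 in CPSF6_KD, and without control replicate 2 the distal counts were 5 in CstF50_KD and 24 in CPSF6_KD. With only the knockdown and control libraries in the fit, PABP2_KD had 52 distal and 16 proximal calls, and suf_KD had 25 proximal calls.

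**Figure D2:**
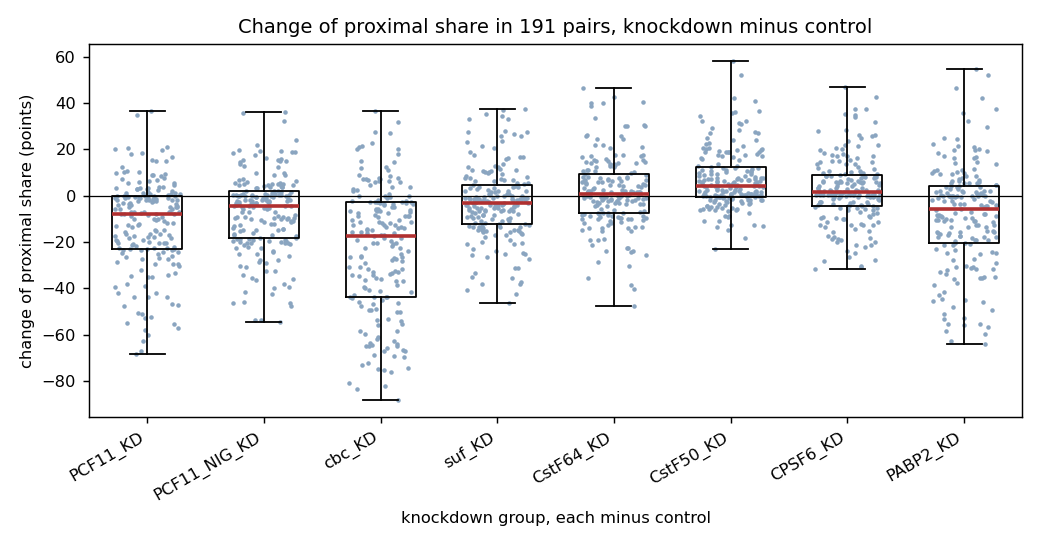
Change of proximal share in percentage points, mean of the knockdown group minus mean of control, for 191 members in each knockdown. Points are members, boxes span the quartiles with the median in red, and whiskers reach the lowest and highest member; the median is −17.4 points in cbc_KD and 4.26 points in CstF50_KD.

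The shares called were set beside those of the other distance classes. In suf_KD pairs at most 250 nt apart had 39.7% distal and 2.13% proximal calls, members 28.8% and 7.33%, and pairs over 600 nt apart 12.4% and 24.9%. In CstF64_KD the distal calls were 29.8%, 22% and 4.14% of the 3 classes from short to long, and the proximal calls 9.22%, 17.8% and 36.7%. In PABP2_KD they were 51.1%, 44.0% and 18.9% for distal and 9.93%, 17.3% and 38.5% for proximal. In CstF50_KD they were 13.5%, 5.24% and 2.37% for distal and 17.0%, 33.5% and 52.1% for proximal, in PCF11_NIG_KD 48.2%, 37.7% and 16.6% and 8.51%, 12.6% and 17.2%, and in PCF11_KD 55.3%, 48.7% and 29.0% and 4.26%, 6.81% and 18.3%. In these 6 knockdowns members lay between the other classes in both directions. In cbc_KD distal calls were 64.5%, 66.0% and 53.3% and in CPSF6_KD 14.9%, 19.4% and 8.88%, highest among members, with proximal calls of 4.26%, 5.24% and 10.1% and of 20.6%, 21.5% and 32.5%. The difference between classes was not tested. Within the members, the distance between sites and the change of share had Spearman's rho of 0.0423 in CPSF6_KD to 0.144 in PCF11_NIG_KD and CstF64_KD over 191 members, which share the libraries and are not replicates. In cbc_KD 48 of the 66 members with the shortest distances (257 to 357 nt), 31 of 61 in the middle (360 to 455 nt) and 47 of 64 with the longest (457 to 599 nt) moved to the distal site.

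**Figure D3:**
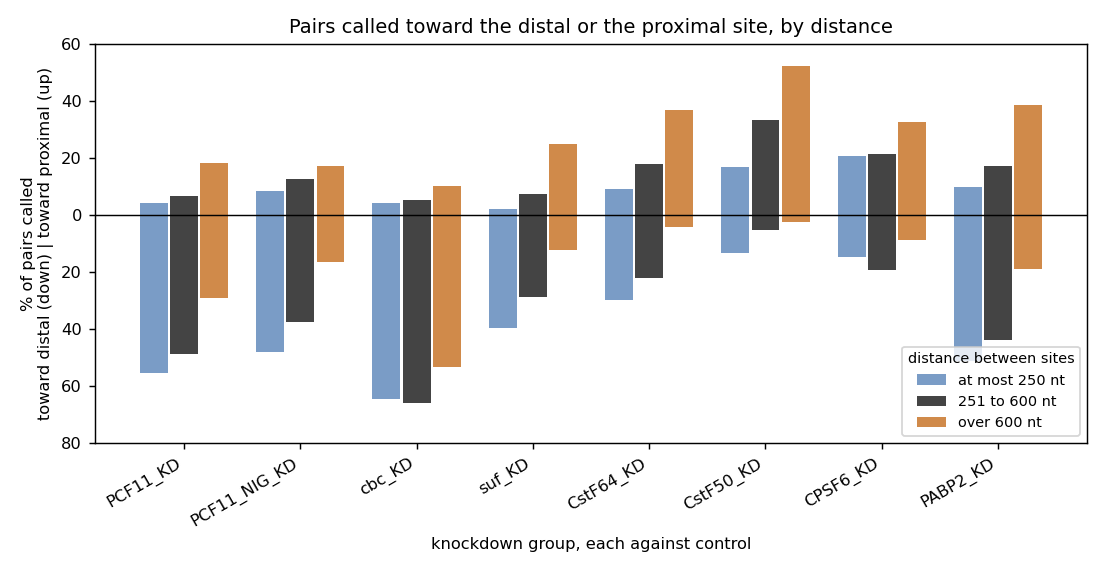
Percent of pairs called toward the proximal site (bars upward) and toward the distal site (bars downward) in each knockdown against control, for pairs at most 250 nt apart (blue), between these bounds (dark grey) and over 600 nt apart (orange). The grey bars lie between the other 2 in both directions in all knockdowns but cbc_KD and CPSF6_KD, as in 28.8% distal in suf_KD, against 39.7% and 12.4%.

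At the lower bound, the 2 pairs just inside were sgll, at 257 nt, and Vha68-1, at 258 nt, and the 2 just outside were alpha-Est5, at 250 nt, and flfl, at 247 nt. In cbc_KD the proximal share was 77.2% ± 1.69 for sgll and 26.4% ± 4.63 for Vha68-1, a subunit of the proton pump of acidic organelles, against 71.2% ± 7.26 and 90.9% ± 1.38 in control (SD, n = 2). It was 72.0% ± 4.98 for alpha-Est5 and 66.0% ± 5.45 for flfl in cbc_KD, against 83.6% ± 0.531 and 45.4% ± 1.62 in control. At the upper bound, mei-218 (595 nt) and fzr (599 nt) lay inside and sno and TM9SF3 (both 606 nt) outside. In cbc_KD they were at 95.8% ± 0.183, 31.3% ± 0.843, 44.0% ± 26.6 and 9.85% ± 0.283, against 99.3% ± 0.365, 94.0% ± 0.293, 88.1% ± 4.24 and 66.0% ± 4.6 in control.

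The knockdowns with a call differed between members. A call in 1 knockdown and none in another is not a test of the difference between them. Of 191 members 179 were called in at least 1 knockdown and 12 in none, namely Arl8, CG42268, CG6700, Nsf2, Pp2C1, Rnf146, Rop, Sec71, Uxs, croc, jumu and tst. In 92 members every call was to the distal site, in 40 every call was to the proximal site, and in 47 calls went both ways in different knockdowns. CG13344, CG4502, CG6218, CG7841, CG9393, Kr-h2, mrj and vih moved to the distal site in all 8 knockdowns. CG9062, Sbf, Tat, atl, fzr2 and qkr58E-2 moved to the proximal site in 7, and none did in all 8. Since the 8 comparisons share their controls, these counts are not 8 separate observations. They were not made over all entries, so whether they are particular to the members was not tested. Some of these calls were lost when 1 library was left out. Of the distal calls, that of CG13344 was lost without any 1 of the 4 libraries compared in CstF64_KD (adjusted p = 0.0802 to 0.169), without any of 3 in CstF50_KD and of 2 in suf_KD. CG6218 lost its call in PCF11_NIG_KD, CstF50_KD, CPSF6_KD and PABP2_KD without at least 1 library, and in CPSF6_KD also with DESeq2 (adjusted p = 0.058), and CG7841 lost it in CstF50_KD. Of the proximal calls, CG9062 lost its call in PCF11_NIG_KD, suf_KD (adjusted p up to 0.21), CstF64_KD and CstF50_KD. Tat lost its call in PCF11_NIG_KD without any of 3 libraries, qkr58E-2 in PCF11_NIG_KD and PABP2_KD, and atl in suf_KD (adjusted p = 0.0507). Sbf, fzr2 and Kr-h2 were not refitted one by one.

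mrj, a DnaJ-type co-chaperone (2R, minus strand, proximal site at 16203849, distal site at 16203327, 2 nt past the annotated end), was the member called distal in all 8 with the largest fall of share. Its proximal share was 44.5% and 43.0% in PCF11_KD, 65.8% and 62.4% in PCF11_NIG_KD, 15.2% and 11% in cbc_KD, and 62.3% and 60.4% in suf_KD. It was 61.2% and 61% in CstF64_KD, 94.0% and 91.7% in CstF50_KD, 87.7% and 85.1% in CPSF6_KD, 73.5% and 83.7% in PABP2_KD, against 96.2% and 96.7% in control. All 16 knockdown libraries lay below both controls. The log2 odds changed by −7.52 ± 0.309 in cbc_KD (SE, edgeR's adjusted p = 1.73e-10) and by −1.05 ± 0.287 in CstF50_KD (adjusted p = 0.0109). The call in CstF50_KD was lost without CstF50_KD replicate 2 (adjusted p = 0.098) and without control replicate 2 (adjusted p = 0.0626).

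vih, the ubiquitin-conjugating enzyme of the anaphase-promoting complex (3L, plus strand, sites at 12505525 and 12505821), ran in a like order. Its share was 31.8% and 32.6% in PCF11_KD, 52.1% and 51.6% in PCF11_NIG_KD, 12.2% and 13.6% in cbc_KD, and 44.2% and 48.4% in suf_KD. It was 63.8% and 65.4% in CstF64_KD, 74.0% and 70.5% in CstF50_KD, 66.9% and 65.1% in CPSF6_KD, 38.4% and 44.5% in PABP2_KD, against 86.4% and 88.0% in control. No knockdown library overlapped the controls, and the adjusted p of edgeR was 8e-05 or lower in each knockdown. CG10654 covers both sites of vih on the opposite strand.

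CG9393 and CG7841, both without a characterised name, and CG4502 lay closest to control in CstF50_KD. CG9393 was at 86.2% and 83.9% in CstF50_KD, and at 33.4% to 55.4% in PCF11_KD, PCF11_NIG_KD, cbc_KD, suf_KD, CstF64_KD and PABP2_KD, against 92.0% and 90.5% in control. CG7841 was at 13.9% in both cbc_KD libraries, against 95.3% and 96.6% in control, and differed between the PABP2_KD libraries, at 38.0% and 63.1%. CG4502 was at 48.4% and 53.7% in cbc_KD and 65.8% and 66.8% in PABP2_KD, against 97.6% and 97.1% in control. CG6218, now named Nagk after N-acetylglucosamine kinase, was at 88.3% and 85.9% in cbc_KD, against 99.9% and 100% in control. Its control distal site held 2 and 0 counts, and Cyfip covers that site on the opposite strand.

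Tat, the α-tubulin acetyltransferase now named Atat (3L, minus strand, sites at 9414158 and 9413594), moved the other way. Its proximal share was 89.3% and 96.8% in PCF11_KD, 80.0% and 84.8% in PCF11_NIG_KD, 90.3% and 89.5% in cbc_KD, and 96.2% and 94.2% in suf_KD. It was 97.9% and 98.2% in CstF64_KD, 85.5% and 71.7% in CstF50_KD, 92.9% and 93.6% in CPSF6_KD, 80.1% and 86.1% in PABP2_KD, against 58.1% and 58.5% in control. All 16 knockdown libraries were above both controls, and CstF50_KD was the knockdown without a call. The distal site of Tat is covered on the opposite strand by Cpsf5, which encodes the other subunit of cleavage factor I, so reads of either gene can be in that count.

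qkr58E-2, a KH-domain RNA-binding protein related to quaking (2R, plus strand, sites at 22418175 and 22418702), had most of its control counts on the distal site. Its proximal share was 36.8% and 36.7% in PCF11_KD, 32.0% and 33.2% in PCF11_NIG_KD, 19.3% and 30.3% in cbc_KD, and 50.0% and 50.3% in suf_KD. It was 58.1% and 56.4% in CstF64_KD, 40.9% and 56.1% in CstF50_KD, 50.4% and 53.6% in CPSF6_KD, 33.2% and 29.4% in PABP2_KD, against 19.6% and 14.5% in control. Only cbc_KD, which overlapped the controls, was not called (adjusted p = 0.124). atl, the atlastin GTPase that fuses ER membranes, was at 81.6% to 94.8% over all knockdown libraries, against 76.1% and 79.8% in control, and it too was not called in cbc_KD (adjusted p = 0.0597). CG9062 was at 88.5% to 98.2%, against 87.3% and 84.2%. CG9062 was not called in cbc_KD either (adjusted p = 0.4). fzr2, a fizzy-related gene, has both of its sites inside Stoml2 on the same strand, the distal one 324 nt past its own annotated end. Kr-h2, Sbf and fzr2 are named here with their values seen.

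**Figure D4:**
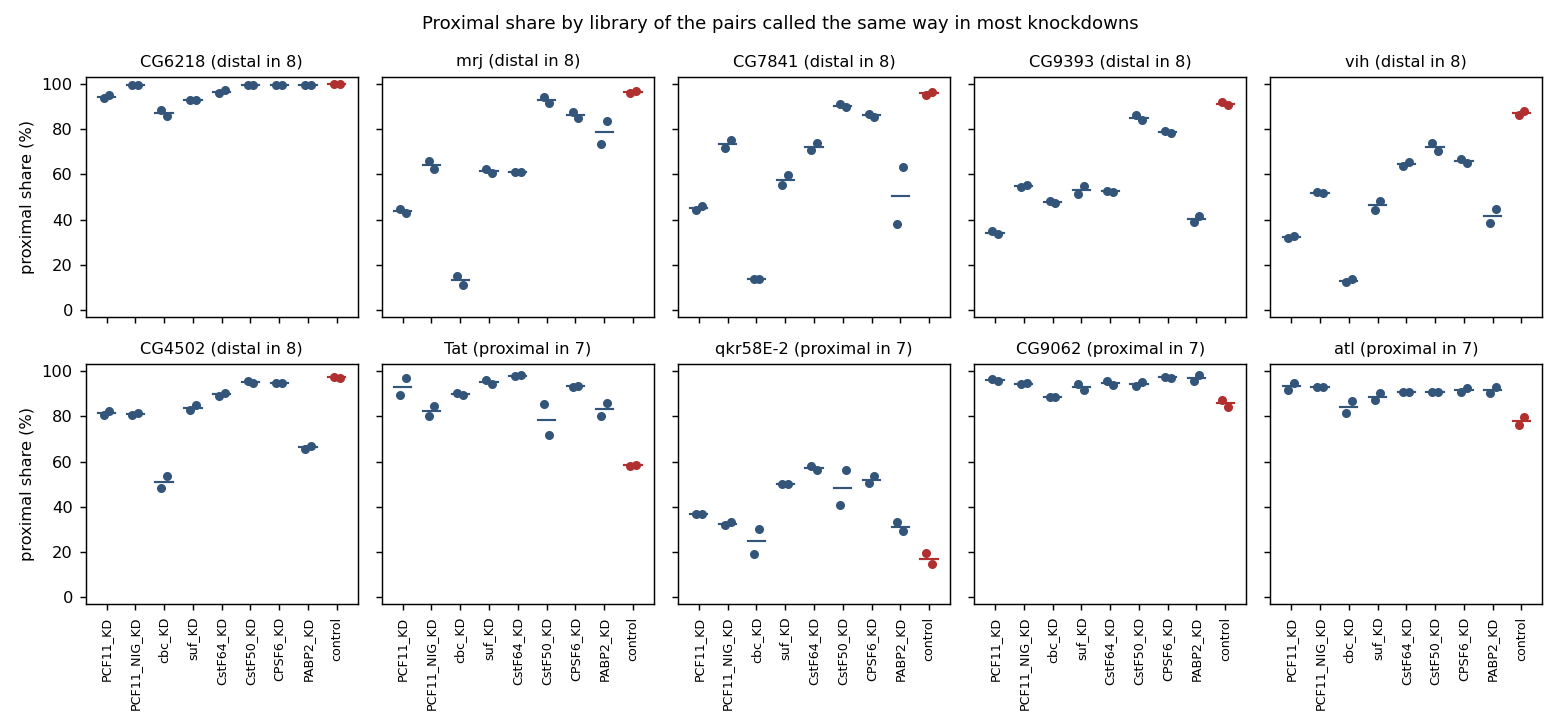
Proximal share in every library of the 6 pairs called toward the distal site in 8 knockdowns and 4 called toward the proximal site in 7. Points are libraries, bars the means of 2, with knockdowns in blue and control in red at the right; mrj is at 15.2% and 11% in cbc_KD, against 96.2% and 96.7% in control.

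Where the libraries averaged 50 counts or more, the 2 largest falls of share in cbc_KD were isopeptidase-T-3 (now Kpc2), at 8.58% and 6.53%, against 95.8% and 95.8% in control, and mrj. isopeptidase-T-3 (2R, plus strand, sites at 19672953 and 19673483) also led PCF11_KD, at 28.6% and 26.5%, and was at 27.3% and 38.4% in PABP2_KD. In CstF50_KD it was at 95.4% and 93.4%, with adjusted p = 0.208. Cks30A, the small Cdk-binding subunit known from female meiosis, was at 21.1% and 18.4% in PCF11_KD and 29.2% and 35.7% in PCF11_NIG_KD, against 86.3% and 87.5% in control. Chd1, a chromatin remodeller, was at 30.2% and 25.2% in PCF11_NIG_KD, against 72.8% and 90% in control, where the 2 libraries were themselves far apart. In PABP2_KD the largest fall was that of Deaf1, a DNA-binding transcription factor, at 38.8% and 11.1%, against 87.9% and 90.6% in control.

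CG43675 was the member with the largest fall in both suf_KD and CstF64_KD. Its share was 40.3% and 43.6% in suf_KD and 39.4% and 42.0% in CstF64_KD, against 88.8% and 88.1% in control, while it was at 95.5% and 96.7% in CstF50_KD, 97.7% and 98.3% in PCF11_NIG_KD, 96.9% in both CPSF6_KD libraries, and 91.7% and 94.4% in PABP2_KD. The changes of log2 odds were −3.4 ± 0.24 in suf_KD, −3.48 ± 0.241 in CstF64_KD and 1.7 ± 0.238 in CstF50_KD (SE), with edgeR's adjusted p = 9.36e-08, 1.27e-07 and 0.000202. CG43675 was also called toward distal in PCF11_KD and was not called in cbc_KD. The call in PCF11_KD was lost without PCF11_KD replicate 1 (change of log2 odds −0.58) or control replicate 1 (−0.75). The proximal call in PABP2_KD was lost without PABP2_KD replicate 2 (0.53) or control replicate 2 (0.78), and with only the 2 groups in the fit (0.83). Both sites of CG43675 (3R, plus strand, 9357686 and 9358135) also lie within drn on the same strand. CG5065 was second in suf_KD, at 45.9% and 39.0%, against 86.2% and 83.6% in control, and Ccdc85 in CstF64_KD, at 36.9% and 32.9%, against 77.3% and 73.6%. Ccdc85 also had the largest fall in CPSF6_KD, at 45.6% and 41.8%.

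The largest rises, with the same minimum of counts, were those of other genes. Ndf, a nucleosome-destabilizing factor, was at 97.1% and 91.2% in CstF50_KD, 86.8% and 89.5% in PABP2_KD, and 75.4% and 69.5% in cbc_KD, against 34.9% and 37.3% in control. It was at 40.3% and 38.4% in PCF11_KD, where it was not called (adjusted p = 0.82). chb, the fly CLASP, which stabilises microtubule ends, was at 83.5% and 76.1% in CstF50_KD, against 24.7% and 30.8% in control, and fell to 4.67% and 5.22% in PCF11_KD and 5.43% and 4.94% in PCF11_NIG_KD. Med, the fly common-mediator Smad, was at 55.8% and 59.1% in suf_KD, against 12.5% and 27.8% in control. Cals, the fly calsyntenin, led CPSF6_KD at 82.0% and 87.4%, against 38.5% and 46.0%, and Atg18b, an autophagy gene, led PABP2_KD at 60.2% and 72.7%, against 12.5% and 10.8%. Spt20, a subunit of the SAGA coactivator, had no distal count among 110 in CPSF6_KD, which allows a distal share of up to 2.73%, against proximal shares of 62.1% and 62.9% in control. Such a limit covers counting error only.

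Some calls of rises were lost when 1 library was left out. CG1486 was at 86.3% and 87.8% in PCF11_KD, mol at 80.6% and 79.3% in CstF64_KD and Rab5, the GTPase of early endosomes, at 76.0% and 80.9% in PCF11_NIG_KD, against control values of 51.4% and 50.0%, 33.3% and 41.8%, and 45.8% and 39.6%. The call of CG1486 in PCF11_KD was lost without control replicate 1 (edgeR's adjusted p = 0.0595). The call of Rab5 in PCF11_NIG_KD (edgeR's adjusted p = 0.0477) was lost without any 1 of the 4 libraries compared, and that of mol (adjusted p = 0.0191) without any of 3. Among called members with this minimum of counts, the 2 largest falls in CstF50_KD were those of vih and of TH1, a subunit of the negative elongation factor, at 82.4% and 75%, against 94.6% and 89.3% in control. The call of TH1 was lost without CstF50_KD replicate 2 (edgeR's adjusted p = 0.182), without control replicate 1 (0.189) and with only the 2 groups in the fit (0.0595).

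Among 5 members on the list of cell cycle and meiosis genes (Cks30A, CycA, fzr, twe and vih), all 5 moved to the distal site in PCF11_KD, PCF11_NIG_KD and cbc_KD, and none to the proximal site, where 43.8%, 33.9% and 60.6% of all entries tested moved to distal. For suf_KD the distal count was 3, for CstF64_KD it was 2 and for PABP2_KD 4, with none to proximal. Of all entries 26.1%, 17.7% and 37.3% moved to distal there, and 11.6%, 21.1% and 21.7% to proximal. CPSF6_KD had 4 to distal and 1 to proximal (all entries 14.7% and 24.2%), and CstF50_KD 1 each way (6.86% and 33.9%). The proximal call in CPSF6_KD was that of fzr. It was lost with DESeq2 (adjusted p = 0.0829) and with only the 2 groups in the fit (edgeR's adjusted p = 0.0885). The call was also lost without CPSF6_KD replicate 2 or either control library. The median change was −62.7 points in cbc_KD, −26.9 in PCF11_KD and −10.6 in PCF11_NIG_KD, beside −16.2, −6.24 and −3.86 over all entries tested. fzr, the Cdh1-type activator of the anaphase-promoting complex, was at 30.7% and 31.9% in cbc_KD and 97.4% and 97.5% in CstF50_KD, where it moved to the proximal site, against 94.2% and 93.8% in control. CycA, cyclin A, was at 70.1% and 67.9% in CPSF6_KD and 72.8% and 70.1% in cbc_KD, against 96.2% and 97.6% in control, and was not called in suf_KD, CstF64_KD or CstF50_KD (adjusted p = 0.254, 0.753 and 0.685). twe, the Cdc25 phosphatase of male meiosis, was at 85.5% in both cbc_KD libraries, against 99.3% and 98.9% in control, and its total counts were also higher, at 2170 and 2210 CPM, against 800 and 863 CPM.

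Among 7 ubiquitin and proteasome genes (DUBAI, Duba, Usp7, Usp8, dgrn, isopeptidase-T-3 and vih), all 7 moved to distal in cbc_KD and in PABP2_KD, 6 in PCF11_KD, and 1 to distal and 2 to proximal in CstF50_KD. Of all entries 60.6%, 37.3% and 43.8% moved to distal in the first 3 of these, and 6.86% to distal and 33.9% to proximal in CstF50_KD. In PCF11_NIG_KD, suf_KD and CstF64_KD 5 members each moved to distal, and in CPSF6_KD 5 to distal and 1 to proximal. Of all entries 33.9%, 26.1% and 17.7% moved to distal in the first 3, and 14.7% to distal and 24.2% to proximal in CPSF6_KD. The median change was −54.0 points in cbc_KD and −45.8 in PABP2_KD, beside −16.2 and −2.62 over all entries. Duba, a deubiquitinase, was at 26.9% and 25.8% in cbc_KD and 97.6% and 96.9% in CstF50_KD, against 94.9% and 95.3% in control. Usp7, a deubiquitinase with mostly distal use, was at 1.94% and 2.51% in cbc_KD and 42.8% and 40.9% in CstF50_KD, against 20.4% and 28% in control.

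Of 5 mitochondrial genes (Hsc70-5, MCU, Marf, Tom40 and mrj, the last of which is a cytosolic co-chaperone listed with them), all 5 moved to distal in cbc_KD, with a median change of −55.6 points, beside 60.6% and −16.2 points over all entries, and 2 in suf_KD and CstF64_KD, beside 26.1% and 17.7%. In PCF11_KD 3 moved to distal (all entries 43.8%), and in PCF11_NIG_KD 3 to distal and 1 to proximal (33.9% and 12.4%). PABP2_KD had 4 and 1 (37.3% and 21.7%), CstF50_KD 1 and 2 (6.86% and 33.9%) and CPSF6_KD 1 and 2 (14.7% and 24.2%). Tom40, the channel of the outer-membrane import complex, went both ways. It was at 53.3% and 47.5% in cbc_KD, but at 94.4% and 92.3% in PCF11_NIG_KD, 94.1% and 94.2% in CstF50_KD, 93.4% and 92.3% in CPSF6_KD, and 93.9% and 94.1% in PABP2_KD, against 78.3% and 77.5% in control. Marf, the fly mitofusin, was at 64.1% and 61.1% in cbc_KD and 93.3% and 92.3% in CstF50_KD, against 81.0% and 83.1% in control. Hsc70-5, the mitochondrial heat shock cognate, was at 19.0% in both PCF11_KD libraries and 17.7% and 14.4% in cbc_KD, against 69.8% and 73.4%.

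Of 11 chromatin and transcription entries, 6 moved to distal and 2 to proximal in cbc_KD (all entries 60.6% and 6.67%). The counts were 2 and 5 in CPSF6_KD (14.7% and 24.2%), and 0 and 3 in CstF50_KD (6.86% and 33.9%). They were 6 and 0 in PCF11_KD (43.8% and 9.52%), and 4 and 3 in PCF11_NIG_KD (33.9% and 12.4%). PABP2_KD also had 4 and 3 (37.3% and 21.7%). For suf_KD they were 2 and 1 (26.1% and 11.6%), and the same for CstF64_KD (17.7% and 21.1%). ken, a zinc-finger repressor, was at 13.8% and 14.9% in cbc_KD, against 90.7% in both controls. red, an eye-colour gene listed with them rather than a known chromatin factor, is among the distal calls counted in every knockdown but CstF50_KD. It was at 17.5% and 14.8% in cbc_KD and 33.5% and 37.5% in PCF11_KD, against 90% and 91.7% in control. Kdm4A, a histone demethylase, was at 66.1% and 61% in CPSF6_KD and 24.6% and 25.5% in PCF11_KD, against 32.6% and 42.4% in control. Of 5 membrane trafficking genes (Rab11, Rab40, Rab5, Vti1a and nudE), 3 moved to distal in cbc_KD, beside 60.6% of all entries. PCF11_KD had 2 to distal (43.8%), CPSF6_KD and PABP2_KD 1 each (14.7% and 37.3%), and CstF50_KD 1 to proximal (33.9%). PCF11_NIG_KD had 1 each way (33.9% and 12.4%). None moved in either direction in suf_KD and CstF64_KD. In suf_KD 26.1% and 11.6% of all entries moved to distal and proximal, and in CstF64_KD 17.7% and 21.1%. Rab11, the GTPase of recycling endosomes, was at 39.1% and 66.3% in cbc_KD, against 71.3% and 75.1% in control. Of 4 signalling genes (Lrch, Nf1, Pi3K92E and dsh), 3 moved to proximal and 0 to distal in CstF50_KD, beside 33.9% and 6.86% of all entries. In cbc_KD 2 moved to distal (60.6%), and in PABP2_KD 2 to distal and 1 to proximal (37.3% and 21.7%). PCF11_NIG_KD had 1 to distal (33.9%), CstF64_KD and CPSF6_KD 1 each to proximal (21.1% and 24.2%), and PCF11_KD and suf_KD none. Nf1, a Ras GTPase activator, was at 88.7% and 75.5% in CstF50_KD, against 48.0% and 59.1% in control. dsh, the Dishevelled protein of Wnt signalling, was at 52.9% and 67.5% in cbc_KD, against 92.7% and 96.5% in control. Of 3 cytoskeleton genes, bbg and chb moved to distal in cbc_KD, beside 60.6% of all entries. Arpc2 and chb moved to proximal in CstF50_KD, beside 33.9%. In PCF11_KD and PCF11_NIG_KD bbg and chb moved to distal (43.8% and 33.9%), and in PABP2_KD Arpc2 and bbg did (37.3%). In CstF64_KD chb moved to proximal (21.1%), a call lost whichever 1 of the libraries compared was left out. None moved in suf_KD and CPSF6_KD. The call of chb in cbc_KD (edgeR's adjusted p = 0.0427) was lost without cbc_KD replicate 2 (0.489), without control replicate 1 (0.0707) or 2 (0.163), with only the 2 groups in the fit (0.0874) and with the replicate block (0.0525). Arpc2, a subunit of the Arp2/3 complex, was at 26.1% and 24% in PABP2_KD, against 58.5% and 66.9% in control.

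Hrb98DE, an hnRNP protein, was at 9.88% and 7.3% in cbc_KD, against 67.0% and 77.2% in control. Rbp9, an ELAV-family protein of the early germline, moved to the proximal site in 5 knockdowns and was at 43.1% and 40.7% in suf_KD, against 9.12% and 8.58% in control. Its total was lower in all 16 knockdown libraries, at 132 to 653 CPM, against 1600 and 1460 CPM in control, while chinmo, the other spermatogonial marker in the table, had log2 changes over control of −0.01 in PCF11_NIG_KD to 1.56 in cbc_KD. nes, a member on the spermatid list, was at 43.1% and 53.4% in PABP2_KD and 90.4% and 90.9% in CPSF6_KD, against 78.1% and 81.7% in control. Of 48 members known only by a CG number, 32 moved to distal and 2 to proximal in cbc_KD, and 4 and 12 in CstF50_KD, beside 60.6% and 6.67%, and 6.86% and 33.9%, of all entries. The 2 members with most counts had both sites inside a neighbouring gene of the same strand, CG33293 in CtsF and CG3982 in Atat. CG3982 was at 85.5% and 85.7% in suf_KD and 99.8% and 99.9% in CstF50_KD, against 98.1% and 97.8% in control.

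Each site was also tested alone, with counts scaled by the trimmed mean of M-values over all entries, so that site and total counts are relative to these genes. Of the members' sites 186 proximal and 176 distal ones passed a mean of 10 counts per library. In cbc_KD the proximal site fell in 109 and rose in 28 members, and the distal site rose in 110 and fell in 16, against 53.6%, 15.3%, 56.0% and 12% of all such sites tested. In CstF50_KD the distal site fell in 59 and rose in 15, and the proximal site rose in 54 and fell in 16 (34.2%, 12.4%, 30.9% and 7.93%). Of the 126 members called distal in cbc_KD, 68 had both a lower proximal and a higher distal site. In 24 the proximal site was lower without a higher distal site, and in 1 of these both sites were lower. In 29 the distal site was higher without a lower proximal site, and in 9 of these both sites were higher. The other 5 had neither, and in 7 of the 126 a site was not tested. Of the 84 called distal in PABP2_KD 35 had both, of the 93 in PCF11_KD 33, of the 72 in PCF11_NIG_KD 25 and of the 55 in suf_KD 20. Of the 64 called proximal in CstF50_KD 12 had both a lower distal and a higher proximal site, and of the 41 in CPSF6_KD 11. These patterns were not counted over all entries, so whether they are particular to the members was not tested. For CstF50_KD the counts of lower distal sites and of both sites changed were smaller whichever 1 of the 4 libraries compared was left out. Such a fit leaves 1 library in a group, so lost power cannot be told apart from dependence on that library.

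In the other knockdowns the proximal site rose in 23 and fell in 61 members and the distal site rose in 87 and fell in 20 for PCF11_KD (all sites 14.9%, 32.9%, 43.2% and 14.7%). For PCF11_NIG_KD these counts were 34, 52, 79 and 23 (17.2%, 24.4%, 40.7% and 15.1%), with 25 proximal sites higher and 60 lower under the size factors of DESeq2. For suf_KD they were 39, 48, 73 and 23 (21.1%, 24.4%, 35.5% and 18.7%). For CstF64_KD they were 42, 30, 55 and 44 (24.4%, 16.2%, 25.9% and 26.1%), for CPSF6_KD 49, 29, 36 and 47 (25.0%, 10.6%, 18% and 25.5%), and for PABP2_KD 53, 67, 85 and 35 (27.3%, 32.9%, 40.9% and 26.1%). The proximal site fell in more members than it rose in for PCF11_KD, PCF11_NIG_KD, suf_KD and PABP2_KD, and the reverse held for CstF64_KD and CPSF6_KD.

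The total of both sites was higher in 67 and lower in 57 of 191 members in cbc_KD (all entries 32.4% and 30.3%), and higher in 33 and lower in 37 in CstF50_KD (18.3% and 17.7%). It was higher in 44 and lower in 41 in PCF11_KD (23.4% and 21.5%), 40 and 39 in PCF11_NIG_KD (20.8% and 22.7%), 47 and 50 in suf_KD (25.3% and 25.1%), 42 and 48 in CstF64_KD (24.2% and 23.8%), 41 and 39 in CPSF6_KD (20.8% and 17.1%), and 63 and 55 in PABP2_KD (32.4% and 30.3%). For the 126 members called distal in cbc_KD the median change of the total was 0.0517 on the log2 scale. The total was higher in 45 of these and lower in 42. isopeptidase-T-3 had 254 and 173 CPM on the proximal site in cbc_KD, against 3650 and 3770 CPM in control, and 2700 and 2480 CPM on the distal site, against 158 and 163 CPM. Its proximal site changed by −4.12 ± 0.22 and its distal site by 4.01 ± 0.17 on the log2 scale (SE, edgeR's adjusted p = 5.24e-10 and 9.38e-11), while its total changed by −0.31 ± 0.14 (adjusted p = 0.0635). CG16972 had 2730 and 3060 CPM on its distal site in cbc_KD, against 61.7 and 52.4 CPM in control. CG6218 rose on its distal site too, to 105 and 121 counts in cbc_KD and 14 and 15 in CstF50_KD, against 2 and 0 counts in control.

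The largest falls of a distal site were of another kind in cbc_KD. CG2201 had 26.7 and 18.1 CPM on its distal site in cbc_KD, against 140 and 219 CPM in control, and its proximal site fell as well, to 90.2 and 77.5 CPM, against 674 and 693 CPM; its share did not pass the test (adjusted p = 0.905). CG5746 had 10 and 49.5 CPM on its distal site in cbc_KD and 10.8 and 19.1 CPM in CstF50_KD, against 209 and 231 CPM in control, with its proximal site too low to be tested. In CstF50_KD Ndf had 4.33 and 12 CPM on its distal site, against 145 and 213 CPM in control, and 147 and 124 CPM on its proximal site, against 77.8 and 126 CPM. The distal change was −4.44 ± 0.57 on the log2 scale (SE, edgeR's adjusted p = 4.51e-05). CG13344 had 156 and 110 CPM on its distal site in CstF50_KD, against 40.3 and 43.1 CPM in control.

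**Figure D5:**
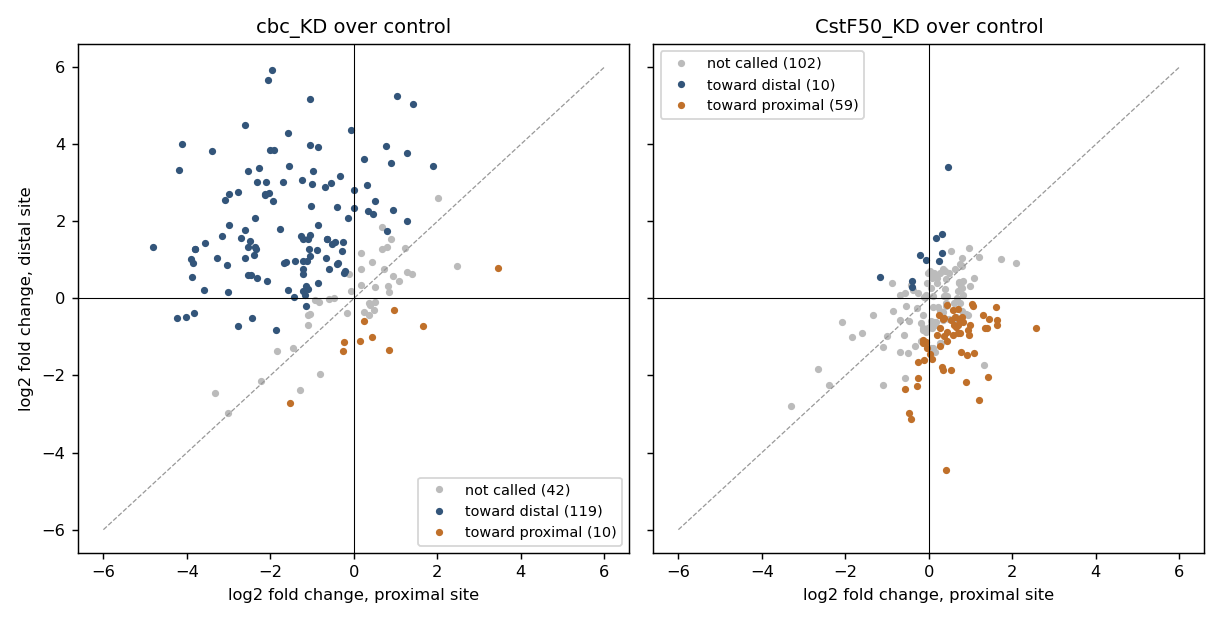
Log2 fold change of the distal site against that of the proximal site in cbc_KD (left) and CstF50_KD (right), each over control, for members with both sites tested; the dashed line marks equal change. Points are members, blue where called toward distal, orange where called toward proximal and grey where not called; in cbc_KD the blue points lie mostly at upper left, where 68 members had a lower proximal and a higher distal site.

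Knockdowns of subunits of 1 complex were also compared with each other, a choice made after their values were seen, and the genes named are those with the largest differences. In cbc_KD against PCF11_KD, 91 of 191 members used the distal site more in cbc_KD and 10 the proximal site, against 45.3% and 5.52% of all entries. lili was at 22.4% and 18% in cbc_KD, against 66.9% and 67.4% in PCF11_KD, with a difference in log2 odds of −3.02 ± 0.246 (SE, edgeR's adjusted p = 1.47e-06). Ndf was at 75.4% and 69.5% in cbc_KD, against 40.3% and 38.4% in PCF11_KD (2.01 ± 0.619, adjusted p = 0.0153). The count of 10 was 5 without PCF11_KD replicate 1 and 6 without its replicate 2.

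In suf_KD against CstF50_KD, 102 of 191 members were more distal in suf_KD and 3 more proximal, against 45.5% and 3.05% of all entries. The median difference was −7.76 points. Sample-sheet numbers recur between these groups, so the sheet and the group cannot be told apart here. RhoGAP71E was at 27.7% and 22.2% in suf_KD, against 61.6% and 73.3% in CstF50_KD (−2.66 ± 0.42, SE, edgeR's adjusted p = 0.000184), and CG43675 at 40.3% and 43.6%, against 95.5% and 96.7%. The 3 more proximal in suf_KD included Rbp9, at 43.1% and 40.7%, against 13.7% and 17.8% in CstF50_KD (1.96 ± 0.476, adjusted p = 0.00418). In CstF64_KD against CstF50_KD, 63 were more distal in CstF64_KD and 6 more proximal, against 28.8% and 4.19%; the 6 were 3 without CstF64_KD replicate 1, 2 without its replicate 2 and 1 without CstF50_KD replicate 1.

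In suf_KD against CstF64_KD, 15 members were more distal in suf_KD and 0 more proximal, against 5.71% and 0.0% of all entries, and 56 members had an unadjusted p under 0.05 in either direction. red was at 53.7% and 60.8% in suf_KD, against 76.2% and 77.1% in CstF64_KD (−1.29 ± 0.237, SE, edgeR's adjusted p = 0.00553), and vih at 44.2% and 48.4%, against 63.8% and 65.4% (−1.08 ± 0.168, adjusted p = 0.00196). The 15 were 6 and 9 without suf_KD replicates 1 and 2, and 5 and 7 without CstF64_KD replicates 1 and 2, but 54, with 2 more proximal, when only these 2 groups and control were fitted. The median difference was −3.54 points over 191 members.

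In the authors' deposited tables of their own beta-binomial test, at an adjusted p of 0.05, 127 of 178 listed members lengthened and 23 shortened in cbc_KD, beside 72.1% and 12.6% of all entries listed, and 19 of 147 lengthened and 86 shortened in CstF50_KD, beside 14.5% and 53.3%. Every listed member called by edgeR had a call of the same direction in the authors' deposited tables, with the exception of 2 of 79 distal calls in PABP2_KD.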

How the data were processed

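Testis RNA was sequenced from 3′ ends in 18 libraries. Per the run log deposited with the tables, the authors counted reads per poly(A) site with PolyA-miner, without strand (s 0) or molecular identifiers (umi 0), keeping genes with at least 10 counts; Bowtie, SAMtools, dm6 and BDGP6 are named per the submitters' processing notes. The deposited site tables hold raw counts. The authors' deposited tables of comparisons hold a score (PolyAIndex, above 0 for lengthening) and an adjusted p-value from a beta-binomial test.

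The 8 count tables, whose control columns were identical, were joined. Site usage was tested with edgeR 4.0.16 in R 4.3.3 on both site counts of a gene, with a coefficient per library, over all 18 libraries and the 525 entries averaging 10 counts or more per library, with Benjamini-Hochberg adjustment and a threshold of 0.05. Site and total counts were tested with TMM scaling. The fits were tested on simulated data with the same dispersion in all libraries. In the real counts the chi-square between duplicates, over its degrees of freedom, ran from 3.18 in CstF64_KD to 60.6 in PABP2_KD. Such unequal spread was not simulated. An exact permutation test of 2 against 2 libraries cannot go below p = 0.333. DESeq2 1.42.0, other filters, other samples in the fit, a replicate block and leaving out each library were tried. Positions are those of the site tables, compared with the Ensembl BDGP6 annotation.

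Named members were, per knockdown, the 2 greatest falls and 2 greatest rises of share among called members averaging 50 counts or more and no overlap with control; the 6 called distal and 4 called proximal in most knockdowns; those with most counts on each functional list; the pairs at the distance bounds; and the greatest changes of the distal site in cbc_KD and CstF50_KD. Members, lists and rules were chosen with earlier results of these data known. Sequences around the sites were not analysed here.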

Additional observations from a re-analysis of the deposited data

How the results depend on the processing

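No count of calls moved by over 1.5 times with DESeq2, with its size factors in edgeR, without a minimum of counts or with the replicate block, under which 126 members moved to distal in cbc_KD and 68 to proximal in CstF50_KD. Libraries with the same replicate number shared only that number, with correlations of their deviations in usage from −0.0482 to 0.204. With only the 2 groups in the fit, 25 members moved to proximal in suf_KD, and 52 to distal and 16 to proximal in PABP2_KD. With only suf_KD, CstF64_KD and control, 54 were more distal and 2 more proximal in suf_KD. Taking the share of summed counts, PCF11_KD changed by −12.7 points, PCF11_NIG_KD by −5.79, cbc_KD by −30.1, suf_KD by −9.24, CstF64_KD by −3.02 (the opposite sign), CstF50_KD by 3.79, CPSF6_KD by 2.05 and PABP2_KD by −9.61. Over members averaging 50 counts or more, CstF64_KD had a median of 0.631, CstF50_KD of 4.18 and CPSF6_KD of 1.18. The causes were not tested.

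Leaving out 1 library at a time, members moving to proximal were 6 to 10 in PCF11_KD, 11 to 17 in PCF11_NIG_KD, 13 to 30 in CstF64_KD, 36 to 54 in CstF50_KD and 23 to 38 in CPSF6_KD, and those moving to distal 5 to 9 in CstF50_KD and 24 to 30 in CPSF6_KD. Between knockdowns, 5 to 10 were more proximal in cbc_KD than in PCF11_KD, 5 to 9 more distal in suf_KD than in CstF64_KD, and 1 to 7 more proximal in CstF64_KD than in CstF50_KD. The distal site was lower in 12 to 18 members in PCF11_KD, 24 to 30 in CstF64_KD, 30 to 38 in CstF50_KD and 23 to 32 in CPSF6_KD. The proximal site was higher in 14 to 25 in PCF11_NIG_KD, 31 to 56 in CstF50_KD, 25 to 38 in CPSF6_KD and 35 to 61 in PABP2_KD, and lower in 6 to 13 in CstF50_KD and 14 to 22 in CPSF6_KD. Totals were lower in 29 to 37 in CstF64_KD and 21 to 28 in CstF50_KD, and higher in 16 to 25 in CstF50_KD and 17 to 31 in CPSF6_KD. Both sites changed, for calls to distal, in 14 to 18 in PCF11_NIG_KD, 13 to 17 in suf_KD and 23 to 42 in PABP2_KD, and, for calls to proximal, in 1 to 6 in CstF50_KD and 3 to 6 in CPSF6_KD. Median changes ran from −8.7 to −7.51 points for PCF11_KD, −6.07 to −3.37 for PCF11_NIG_KD, −19.0 to −17.0 for cbc_KD, −4.41 to −1.89 in suf_KD, −0.142 to 1.28 in CstF64_KD, 3.12 to 4.91 in CstF50_KD, 0.576 to 2.02 in CPSF6_KD and −7.06 to −3.65 in PABP2_KD. Of the alternative values for named members, called or not, 2067 stayed on their side of the threshold, 131 lost a call and 42 gained one, with no reversal. The comparison of motifs in other windows was not run.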
